A study of Homo sapiens with 6 samples.

Results

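The SOX transcription factors are proteins that bind and bend DNA through a high-mobility-group box, the domain they share with the sex-determining factor for which the family is named. The 10 genes considered here are SOX2, SOX3, SOX4, SOX5, SOX6, SOX8, SOX9, SOX10, SOX11 and SOX12. They were chosen by name, by matching Ensembl IDs to symbols in GENCODE 29, and 8 of the 10 had a row among the 32434 gene IDs of the expression table. SOX3 and SOX10 had none and were not analysed here. The values are FPKM (fragments scaled by exon length and library depth) from bulk RNA of SK-N-BE(2), an established human neuroblastoma line. The 3 shNC libraries came from cells with a control hairpin and the 3 shMYT1 libraries from cells with a hairpin against MYT1. The labels describe lentiviral infection for 24 h and puromycin selection for 48 h in all 6, and speak of a MYT1 knockdown there but of a knockout in the genotype and design fields. The word knockdown is used here for MYT1, a zinc-finger factor of developing neurons that the study's title sets against retinoic acid signalling. All cells were of 1 line, hairpin sequences are not given in the labels, and no label says that replicates were separate cultures, so each p-value measures only the spread between these libraries.

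SOX proteins are sorted into groups by the likeness of their boxes. SOX2 and SOX3 (SOXB1) hold neural stem and progenitor cells undifferentiated. SOX4, SOX11 and SOX12 (SOXC) act in newly formed neurons and in the sympathetic nervous system, from which neuroblastoma arises, and SOX11 is part of the core transcription factor circuit of noradrenergic neuroblastoma cells. SOX5 and SOX6 (SOXD) carry no activation domain of their own and modulate other SOX factors. SOX8, SOX9 and SOX10 (SOXE) act in the neural crest, in glia and, for SOX9 with SOX5 and SOX6, in cartilage.

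The coding sequence of the box is shown for SOX4, the most abundant member, and for SOX2 and SOX9, the members that changed, because it encodes the domain that defines the family, and likeness between members bears on how safely a sequenced fragment can be given to 1 of them. The sequences come from GENCODE 29 (GRCh38, hg38), 5′ to 3′ on the coding strand, 237 bases for 79 codons. The box lies at chr6:21594703-21594939 (plus strand) in SOX4 and chr3:181712475-181712711 (plus) in SOX2, each in a single exon. In SOX9 it spans chr17:72121698-72122830 (plus) and is split over 2 exons. SOX4 is in lower case throughout, and capitals in the others mark bases that differ from SOX4.
SOX4: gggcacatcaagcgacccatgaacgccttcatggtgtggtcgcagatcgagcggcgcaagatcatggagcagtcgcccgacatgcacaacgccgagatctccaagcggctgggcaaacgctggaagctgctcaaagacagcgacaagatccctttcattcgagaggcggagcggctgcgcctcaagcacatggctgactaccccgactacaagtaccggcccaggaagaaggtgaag
SOX2: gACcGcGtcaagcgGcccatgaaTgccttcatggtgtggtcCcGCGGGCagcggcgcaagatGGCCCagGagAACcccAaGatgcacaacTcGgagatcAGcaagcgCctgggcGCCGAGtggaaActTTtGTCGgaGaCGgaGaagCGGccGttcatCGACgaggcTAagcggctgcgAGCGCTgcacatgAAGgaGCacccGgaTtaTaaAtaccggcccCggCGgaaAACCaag
SOX9: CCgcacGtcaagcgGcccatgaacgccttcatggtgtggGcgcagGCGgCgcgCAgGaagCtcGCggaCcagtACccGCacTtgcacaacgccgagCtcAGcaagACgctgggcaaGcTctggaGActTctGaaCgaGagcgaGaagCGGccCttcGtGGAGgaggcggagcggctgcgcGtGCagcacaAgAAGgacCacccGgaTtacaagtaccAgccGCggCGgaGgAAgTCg

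Of 237 bases, the SOX9 box differed from that of SOX4 at 64 and the SOX2 box at 78. The boxes of SOX8 and SOX9 were identical in 89.9% of bases and those of SOX5 and SOX6 in 81.4%. The longest identical run between any transcripts of 2 of the 8 measured genes was 37 bases, between SOX8 and SOX9. It was 27 bases for SOX4 with SOX11, 33 for SOX4 with SOX12 and 35 for SOX11 with SOX12. The labels' protocols describe selection of cDNA fragments much longer than these runs, and the read length is not given in the sources used here. Exon overlap with other genes was also small: SOX4 shares 168 of 5852 exon bases with AL512380.2 on the opposite strand, SOX6 shares 219 of 19636 with C11orf58, and SOX11 shares 74 of 8719 with AC108025.2 on its own strand. Neither the strand setting of the count nor the handling of fragments matching several genes is stated there.

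SOX4, SOX11 and SOX12 were by far the most abundant members. In shNC cells SOX4 averaged 59.7 ± 2.10 FPKM (SD, n = 3), SOX11 46.5 ± 0.97 and SOX12 18.8 ± 1.33. SOX2 followed at 5.83 ± 0.04 FPKM, SOX9 at 1.89 ± 0.28 and SOX5 at 0.523 ± 0.084 (SD, n = 3 each). SOX8 averaged 0.0889 ± 0.0221 FPKM and SOX6 0.0586 ± 0.0006. The order was the same in shMYT1 cells, and in both groups the 3 libraries of each gene lay apart from those of the next gene down. Among the 14106 genes whose mean reached 1 FPKM, SOX4 ranked 588th by mean level, SOX11 862nd, SOX12 2353rd, SOX2 6648th and SOX9 9761st. SOX8 rested on 6 to 22 fragments per library and SOX6 on 21 to 34, so their places at the bottom carry wide counting error. In bulk RNA a gene expressed weakly by all cells and one expressed strongly by few cells cannot be told apart, and neither can fewer cells of a type and less RNA per cell.

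**Figure D1:**
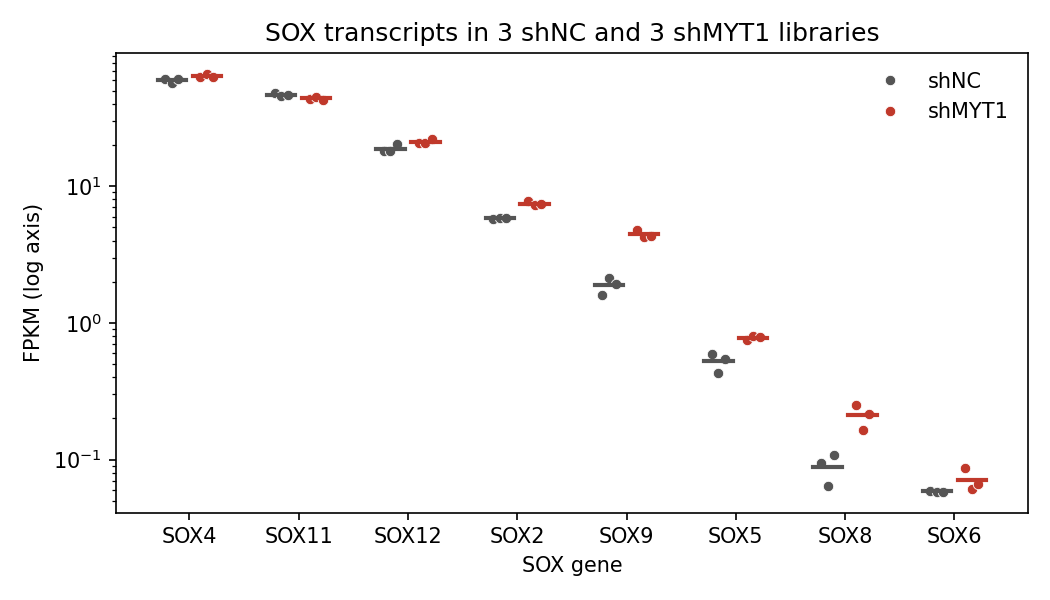
FPKM of the 8 measured SOX genes (log axis) in each shNC (grey) and shMYT1 (red) library, ordered by their shNC mean; horizontal lines are group means. Levels run from about 60 FPKM for SOX4 to under 0.1 FPKM for SOX6 in shNC cells, and the widest gap between the groups among genes above 1 FPKM is that of SOX9.

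SOX9 and SOX2 rose in shMYT1 cells, and no member fell past the test. Of the 5 members at or above a mean of 1 FPKM, 2 passed the test, both upward (limma on log2(FPKM + 1), Benjamini-Hochberg adjusted p under 0.05 over all 14106 genes). For comparison, 24.2% of all genes tested passed, and 11.9% passed upward. The groups did not overlap in any of the 5, with shMYT1 higher in 4, where 42.3% of all genes tested showed no overlap and 20.5% showed none with shMYT1 higher. Whether the family differs from other genes was not tested. MYT1 itself passed downward: its libraries were at 5.73, 5.12 and 5.18 FPKM in shNC and 4.20, 4.13 and 4.36 FPKM in shMYT1 (log2 fold change -0.28, SE 0.05, limma adjusted p = 0.0102). The means differed by -20.8%, so most of the MYT1 RNA was still measured. Its exon length in GENCODE 29 did not give whole fragments.

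SOX9 (ENSG00000125398, chr17:72121020-72126420, plus strand, 3 exons), the SOXE factor of neural crest, glia and cartilage, was at 1.60, 2.14 and 1.94 FPKM in the shNC libraries 1 to 3. The shMYT1 libraries stood at 4.75, 4.25 and 4.35 FPKM. Every shMYT1 library was well above the highest shNC library, and the 3 shMYT1 values lay near each other. The ratio of the means was 2.35, and the log2 fold change on the log2(FPKM + 1) scale was 0.92 (SE 0.08, 95% interval 0.72 to 1.11, limma adjusted p = 0.000711). In absolute size this exceeded that of 99.2% of the genes tested. These values rest on 472 fragments over the shNC libraries and 973 over the shMYT1 libraries. The exact two-sided permutation test of 3 against 3 gave p = 0.1 for SOX9, as for each of the 8 genes, the smallest it can give. None of the 50 tested genes nearest to SOX9 on chromosome 17 had a fold change as high, and their median was -0.09.

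SOX2 (ENSG00000181449, chr3:181711924-181714436, plus strand, 1 exon), the SOXB1 factor of neural stem cells, rose by a smaller amount. Its shNC libraries were at 5.80, 5.88 and 5.81 FPKM, a spread of under 0.1 FPKM. The shMYT1 libraries were at 7.76, 7.27 and 7.37 FPKM, all above the highest control. The ratio of the means was 1.28 and the log2 fold change 0.31 (SE 0.04, 95% interval 0.22 to 0.40, limma adjusted p = 0.00204). Here 306 to 389 fragments per library were counted, so the close shNC values understate the counting error. Of 50 tested neighbours on chromosome 3, 4 had a higher fold change than SOX2, and their median was 0.03. SOX2 lies inside SOX2-OT, a long noncoding gene on the same strand, without shared exon bases in GENCODE 29. SOX2-OT itself was near the limit of detection, with 11 fragments over the 3 shNC libraries and 53 over the 3 shMYT1 libraries. These numbers are approximate, since its exon length in GENCODE 29 did not give whole fragments. It did not pass in a limma fit without a filter on low values (adjusted p = 0.425), but did with voom on recovered fragments (adjusted p = 0.00167).

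**Figure D2:**
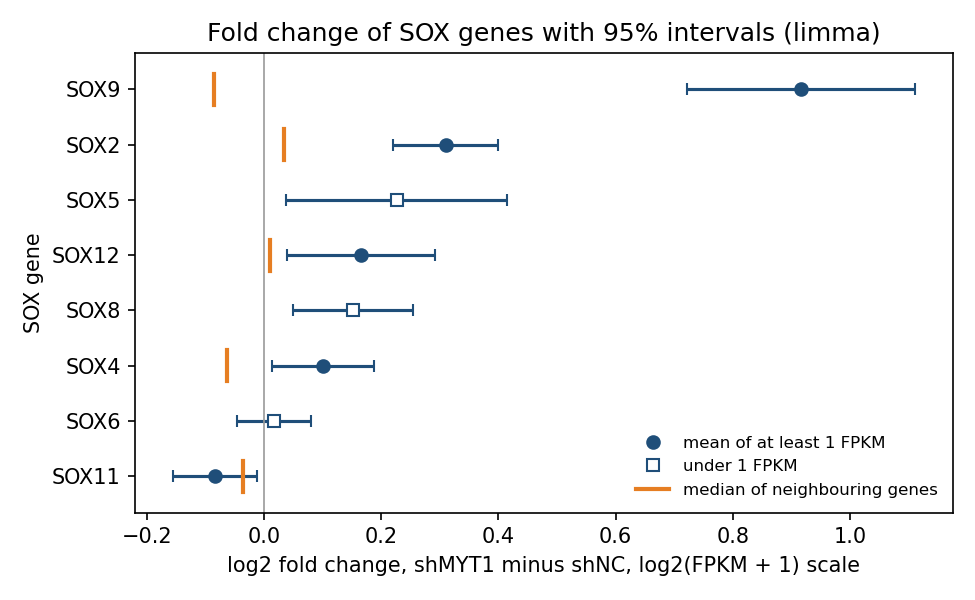
Log2 fold change (shMYT1 minus shNC, log2(FPKM + 1) scale) of the 8 SOX genes with 95% intervals from limma; filled circles come from the fit over genes of at least 1 FPKM, open squares from the fit without that filter, and orange ticks are medians of the tested neighbouring genes. SOX9 at 0.92 and SOX2 at 0.31, the genes that passed the test, lie farthest right, and SOX11 at -0.08 is the single gene left of 0. The intervals are for 1 gene at a time, and all but that of SOX6 leave out 0. Those of SOX9, SOX2, SOX4 and SOX12 also leave out the median of their neighbours.

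The SOXC genes moved by little, and none of the 3 passed the test over all genes. SOX4 (ENSG00000124766, chr6:21592768-21598619, plus strand) was at 60.8, 57.3 and 61.1 FPKM in shNC and at 63.2, 66.3 and 62.8 FPKM in shMYT1. SOX12 (ENSG00000177732, chr20:325595-330224, plus strand) was at 18.1, 18.0 and 20.3 FPKM in shNC and at 20.8, 20.7 and 22.0 FPKM in shMYT1. For both genes the shMYT1 libraries were all higher, SOX12 by a narrow margin over shNC library 3. SOX11 (ENSG00000176887, chr2:5692667-5701385, plus strand) went the other way, at 47.7, 45.9 and 46.1 FPKM in shNC and 43.5, 45.1 and 42.9 FPKM in shMYT1. All 3 genes have a single exon and rested on many fragments, at least 1695 per library. The log2 fold change was 0.10 for SOX4 (95% interval 0.01 to 0.19, limma adjusted p = 0.0919), 0.17 for SOX12 (0.04 to 0.29, adjusted p = 0.0655) and -0.08 for SOX11 (-0.16 to -0.01, adjusted p = 0.0901). These intervals are for 1 gene at a time and leave out 0, while the p-values adjusted over all genes miss the threshold.

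Several settings bring SOXC genes past the threshold. SOX12 passed without shNC replicate 3 (log2 fold change 0.22, limma adjusted p = 0.0134). With voom on recovered fragments all 3 SOXC genes passed, at adjusted p = 0.0257 for SOX4, 0.0439 for SOX11 and 0.00743 for SOX12. In that setting 4454 genes passed in all, against 3420 in the fit above, and the reason was not tested. SOX4 lies in a stretch of chromosome 6 where the 50 tested neighbours had a median of -0.06, and 11 of them had a higher fold change than SOX4. SOX11, on the short arm of chromosome 2, had 41 tested neighbours with a median of -0.04, and 24 of them lay above it.

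Within a library, SOX4 and SOX11 can be compared without regard to scaling between libraries. SOX4 over SOX11 was 1.28, 1.25 and 1.33 in the shNC libraries and 1.45, 1.47 and 1.46 in the shMYT1 libraries. SOX4 was higher and SOX11 lower in every shMYT1 library, so these ratios could not overlap, and they are given as a description. The SOXC genes together made up 93.4 to 93.95% of the summed SOX FPKM in shNC and 90.4 to 91.3% in shMYT1. For SOXE, nearly all of it SOX9, the share lay between 1.26 and 1.70% in controls and between 3.06 and 3.54% with the MYT1 hairpin. SOXB1, here SOX2 alone, made up 4.27 to 4.53% and 5.02 to 5.50%. Over the 8 genes the shNC libraries summed to 134.7, 129.7 and 135.9 FPKM and the shMYT1 libraries to 141.1, 144.7 and 140.5 FPKM. These sums describe the members and were not tested.

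**Figure D3:**
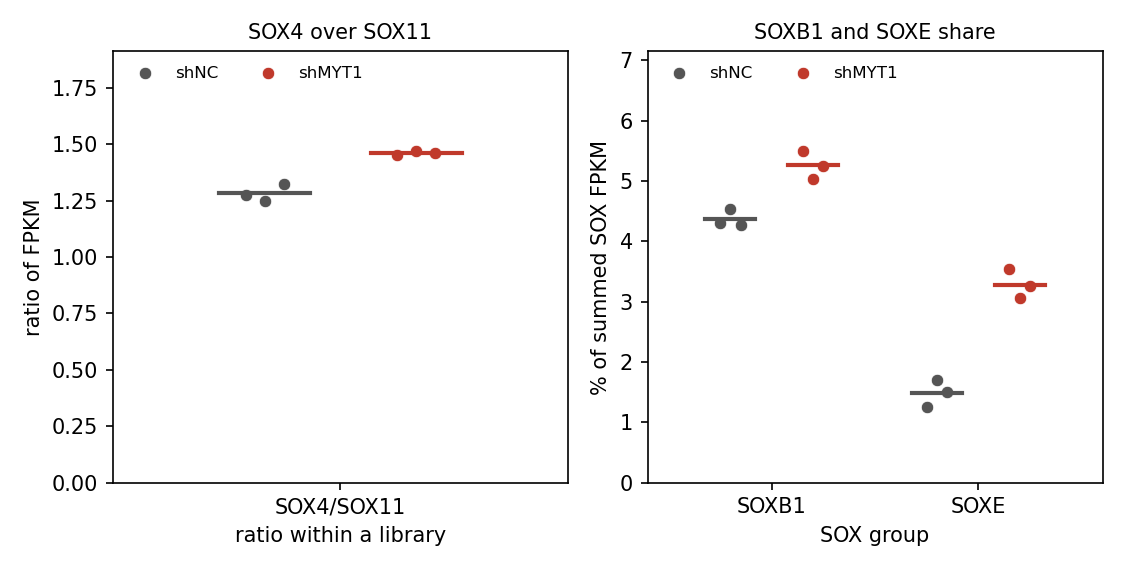
Left, ratio of SOX4 to SOX11 FPKM within each library; right, share of SOXB1 (SOX2) and SOXE (SOX8 and SOX9) in the summed FPKM of the 8 SOX genes, in percent; points are libraries (shNC grey, shMYT1 red), lines are group means, and both axes start at 0. The ratio lies at 1.25 to 1.33 in shNC and 1.45 to 1.47 in shMYT1, and both shares are higher in every shMYT1 library.

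The 3 members under 1 FPKM were read from a second limma fit over all 32434 IDs without a filter, in which 7.89% of IDs passed. None of the 3 passed there. SOX5 (ENSG00000134532, chr12:23529500-24562544, minus strand), a SOXD factor, was at 0.592, 0.429 and 0.547 FPKM in shNC and 0.744, 0.802 and 0.792 FPKM in shMYT1. SOX8 (ENSG00000005513, chr16:981808-986979, plus strand), the SOXE relative of SOX9, was at 0.0946, 0.0645 and 0.108 FPKM in shNC and 0.249, 0.166 and 0.216 FPKM in shMYT1. SOX6 (ENSG00000110693, chr11:15966449-16739591, minus strand), the partner of SOX5, was at 0.0593, 0.0582 and 0.0583 FPKM in shNC and 0.0868, 0.0605 and 0.0659 FPKM in shMYT1. The shMYT1 libraries were all above the shNC libraries for the 3 genes, where 26.7% of IDs in that fit showed no overlap in either direction. For SOX6 the margin was within what 1 fragment is worth.

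The log2 fold change was 0.23 for SOX5 (SE 0.08, limma adjusted p = 0.16), 0.15 for SOX8 (SE 0.04, limma adjusted p = 0.0943) and 0.02 for SOX6 (SE 0.03, limma adjusted p = 0.778). The added pseudocount of 1 dominates at these levels and compresses the change: the ratio of mean FPKM was 1.49 for SOX5, 2.36 for SOX8 and 1.21 for SOX6. Behind SOX8 stood 25 fragments over the shNC libraries and 52 over the shMYT1 libraries, and behind SOX6 73 and 78. With voom on recovered fragments SOX8 had a log2 fold change of 1.22 (adjusted p = 0.0425) and SOX5 one of 0.58 (adjusted p = 0.0034). The exon length of SOX5 in GENCODE 29 did not give whole fragments, so its fragment numbers, 94 to 155 per library, are approximate.

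Of 9 further SOX genes listed, 6 had a row and 2 reached a mean of 1 FPKM. SOX18, the SOXF factor of blood and lymph vessels, was at 2.47, 3.14 and 2.74 FPKM in shNC and 4.35, 4.52 and 5.83 FPKM in shMYT1, and it rose (log2 fold change 0.64, SE 0.11, limma adjusted p = 0.00798). SOX15 was at 1.24 ± 0.58 FPKM in shNC and 1.38 ± 0.21 FPKM in shMYT1 (SD, n = 3 each), with limma adjusted p = 0.705. SOX7, another SOXF gene, which shares 1268 of 3216 exon bases with PINX1 on its strand and so has an uncertain level, was lower in all shMYT1 libraries, at 0.549 ± 0.136 FPKM in shNC and 0.249 ± 0.054 FPKM in shMYT1 (SD, n = 3 each), and did not pass in the fit without a filter (limma adjusted p = 0.0974). SOX13 averaged 0.276 and 0.282 FPKM. SOX21 and SOX30 had at most 3 fragments in any library, which does not allow a direction. SOX1, SOX14 and SOX17 were not analysed here.

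SOX9-AS1, a noncoding gene whose span covers SOX9 on the opposite strand, was at 0.0261, 0.0668 and 0.0357 FPKM in shNC and 0.164, 0.174 and 0.158 FPKM in shMYT1. It was picked for mention after its values were seen, and its 29 fragments in shNC and 98 in shMYT1 leave it at a trace level. In the fit without a filter it passed (log2 fold change 0.16, limma adjusted p = 0.0346), but not without shNC replicate 1 (adjusted p = 0.0771), shNC replicate 3 (0.0742), shMYT1 replicate 1 (0.0726), shMYT1 replicate 2 (0.0748) or shMYT1 replicate 3 (0.0718). It still passed without shNC replicate 2, at 0.0499. SOX9-AS1 also missed the threshold with a pseudocount of 0.1 (limma adjusted p = 0.0655) and with the replicate number as a block (0.102). The same held with the running median of its neighbours removed (0.0663). Of the settings tried, 8 ended the call and 5 kept it. The other genes checked belong to an axis in which the 6p22.3 noncoding pair CASC15 and NBAT1, neighbours of SOX4, is reported to act on SOX9 through the remodeller CHD7 and the deubiquitinase USP36. None of its 3 tested genes passed as deposited, but CASC15 passed with voom on recovered fragments (adjusted p = 0.0434), and CHD7 turned from -0.02 to 0.24 and passed with the running median of its neighbours removed (limma adjusted p = 0.00506). CASC15 was at 2.80 ± 0.06 FPKM in shNC and 3.14 ± 0.24 FPKM in shMYT1 (SD, n = 3 each), with limma adjusted p = 0.185. NBAT1 was at 1.01 ± 0.20 FPKM in shNC and 0.904 ± 0.207 FPKM in shMYT1 (SD, n = 3 each), and the pair shares 227 exon bases on opposite strands. Both noncoding genes were named after their values were seen. USP36 averaged 11.7 and 11.4 FPKM and CHD7 8.55 and 8.42 FPKM.

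Genes that other studies place downstream of or beside SOX factors were listed by group, and each list is given by its counts beside the median fold change of all genes tested, which was -0.005, and the 24.2% of them that passed (11.9% upward). Whether a list differs from that background was not tested. Among 6 genes reported downstream of SOX4 and SOX11, 3 rose and 1 fell, with a median of 0.12. TEAD2, a partner of the YAP coactivator, stood at 13.7 ± 1.13 FPKM in shNC and 24.8 ± 1.98 FPKM in shMYT1 (SD, n = 3 per group). Its log2 fold change of 0.82 passed at a limma adjusted p = 0.00075. TEAD2 lies on the long arm of chromosome 19, and removing the running median of its neighbours left 0.49 on that scale (limma adjusted p = 0.00225). DCX, the microtubule protein of migrating neurons, went from 12.3 to 16.1 FPKM, and EZH2, a histone methyltransferase, from 27.7 to 32.7 FPKM. MYB went from 2.75 to 1.99 FPKM (log2 fold change -0.32, limma adjusted p = 0.0445), and leaving out 1 library ended that call except for shNC replicate 3 (0.0337). The limma adjusted p for MYB was 0.0934 and 0.107 with shNC replicates 1 and 2 omitted in turn, and 0.122, 0.11 and 0.064 with shMYT1 replicates 1, 2 and 3 omitted in turn. TUBB3, the neuronal tubulin gene, was at 2.24 and 2.09 FPKM and SMARCC1 at 32.7 and 32.8 FPKM, and neither passed. TUBB3 shares 1584 of 4430 exon bases with AC092143.1, so its level is uncertain.

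Neural progenitor genes, the setting in which SOX2 and SOX3 are best known, went both ways. Of 12 listed, 6 were tested, 3 rose and 1 fell, with a median of 0.16. PROM1, which encodes the surface protein CD133, averaged 0.602 ± 0.051 FPKM in controls and 1.503 ± 0.090 FPKM in shMYT1 (SD, n = 3 per group), and its log2 fold change was 0.64. It reached a mean of 1 FPKM only through the shMYT1 libraries, so its limma adjusted p = 0.00275 is not independent of the filter, and in the fit without a filter it was 0.00798. HES1, a Notch effector, went from 5.50 to 6.91 FPKM, and VIM, the vimentin gene, from 129 to 153 FPKM. NES, the nestin gene, was at 95.7 ± 2.49 FPKM in shNC and 93.3 ± 1.90 FPKM in shMYT1 (SD, n = 3 each) and did not pass.

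Glial and pigment cell genes listed around SOX10 were mostly low, in a table where SOX10 had no row. Of 18 listed, 7 were tested, 2 rose and 1 fell, with a median of 0.07. PMP22, a myelin protein gene that many cell types express, rose by 0.57 on the log2 scale (limma adjusted p = 0.000291), with 16.1 ± 0.79 FPKM in shNC and 24.5 ± 0.20 FPKM in shMYT1 (SD, n = 3 per group). TYRP1, a melanosome enzyme gene, rose from 2.27 to 3.59 FPKM, and NGFR, a neurotrophin receptor gene of crest and Schwann cells, fell from 9.09 to 5.71 FPKM; 1126 of its 4150 exon bases lie opposite other genes. Among the 8 under 1 FPKM, EDNRB, the endothelin receptor gene of crest cells, passed in the fit without a filter. It is named after its values were seen: 0.381, 0.390 and 0.409 FPKM in shNC against 0.809, 0.812 and 0.786 FPKM in shMYT1 (log2 fold change 0.37, limma adjusted p = 0.0243). Leaving out any 1 library ended the EDNRB call, with limma adjusted p from 0.055 to 0.0754. Over all settings 8 ended the EDNRB call and 5 kept it, among these voom on recovered fragments (adjusted p = 0.000148). The glial genes ERBB3, FABP7 and GFAP were all far under 1 FPKM in both groups, with means up to 0.11 FPKM.

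Cartilage matrix genes, which SOX9 activates together with SOX5 and SOX6, were mostly under 1 FPKM and went both ways. Of 13 listed, 12 had a row and 2 were tested: COL9A3 rose from 1.37 to 2.07 FPKM (log2 fold change 0.37, limma adjusted p = 0.0156), and COL9A2 was at 7.61 ± 0.68 FPKM in shNC and 7.54 ± 0.39 FPKM in shMYT1 (SD, n = 3 each). COL9A3 missed the threshold when shNC replicate 1 (adjusted p = 0.0525), shNC replicate 2 (0.0553) or shMYT1 replicate 1 (0.0569) was omitted. Of the 10 under 1 FPKM, MATN3, a cartilage matrix protein gene, passed downward in the fit without a filter and is named after its values were seen. It was at 0.821, 0.749 and 0.856 FPKM in shNC and 0.402, 0.363 and 0.343 FPKM in shMYT1 (log2 fold change -0.40, limma adjusted p = 0.0231). Leaving out any 1 library ended the MATN3 call, with limma adjusted p from 0.0533 to 0.0749. Over all settings 7 ended the MATN3 call and 6 kept it, among these voom on recovered fragments (adjusted p = 0.00232). COL2A1 and ACAN, the defining collagen and proteoglycan genes of cartilage, averaged 0.019 and 0.0028 FPKM in shNC and 0.0339 and 0.0065 FPKM in shMYT1. Of 10 factors reported to act with SOX proteins on DNA, 2 were tested. CTNNB1, which encodes beta-catenin, rose by 0.26 on the log2 scale (limma adjusted p = 0.00297), from a mean of 24.9 FPKM to one of 30.1 FPKM. POU2F1 went from 6.17 to 5.35 FPKM (limma adjusted p = 0.0217), which did not hold when shNC replicate 1 (0.0737), shNC replicate 2 (0.0694), shMYT1 replicate 1 (0.0754) or shMYT1 replicate 3 (0.0574) was omitted.

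**Figure D4:**
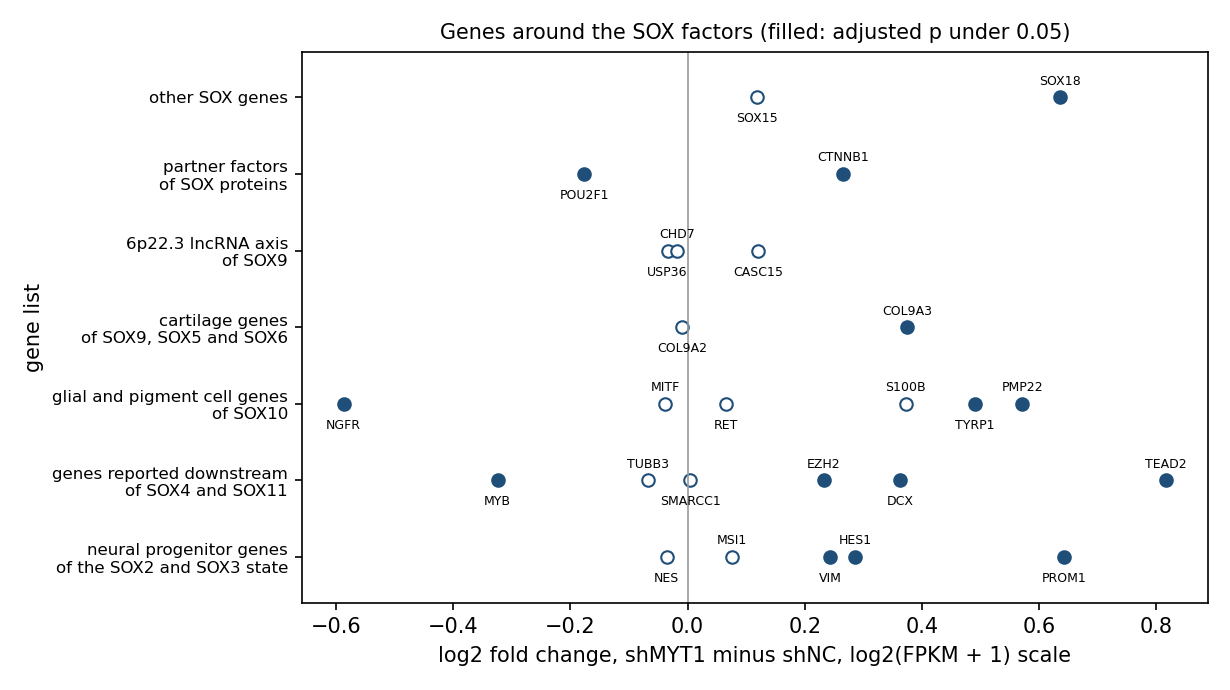
Log2 fold change (shMYT1 minus shNC, log2(FPKM + 1) scale) of the tested genes in 7 lists around the SOX factors, 1 point per gene shown; filled points passed the test (limma adjusted p under 0.05) and open points did not. TEAD2 at 0.82, PROM1 at 0.64 (above 1 FPKM on average only through its shMYT1 libraries) and SOX18 at 0.64 lie farthest right, NGFR at -0.59 farthest left, and 3 lists show passing genes on both sides of 0.

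The labelled cell type was checked with markers. The 8 noradrenergic genes, among them PHOX2A, HAND2, GATA3, ISL1, DBH and TH, were all above 5 FPKM in every library, and summed to between 1076 and 1178 FPKM in controls and between 1016 and 1054 FPKM in shMYT1. Of these 8, 3 rose and 3 fell. For this and the lists below, 24.2% of all genes tested passed, and 11.9% passed upward. Whether a marker list differs from that background was not tested. Markers of other cell types went both ways within their lists. Fibroblast and smooth muscle genes, 9 in all, summed to between 166 and 170.1 FPKM in controls and between 121 and 124 FPKM in shMYT1. Of the 8 tested, 4 rose, among them ACTA2 and TAGLN, and 3 fell, among them LUM and DCN. LUM alone had means of 97.7 and 54.6 FPKM in the 2 groups, which is nearly all of the difference in the sum. Over 7 Schwann and glial markers the sum lay between 2.39 and 2.46 FPKM in controls and between 2.73 and 3.51 FPKM in shMYT1, and neither of the 2 tested genes passed, although S100B (1.19 ± 0.14 FPKM in shNC and 1.85 ± 0.47 FPKM in shMYT1, SD, n = 3 each) passed without shMYT1 replicate 2 (limma adjusted p = 0.0187) and with voom (adjusted p = 0.046). Over 5 melanocyte markers it lay between 3.61 and 4.45 FPKM and between 4.97 and 5.64 FPKM, with TYRP1 the 1 of 2 tested genes that rose. Endothelial markers summed to 0.0946 to 0.200 FPKM in controls and 0.258 to 0.371 FPKM in shMYT1, none of them above 1 FPKM. VWF went from 43 fragments over the shNC libraries to 100 over the shMYT1 libraries (0.0651 and 0.174 FPKM on average, groups not overlapping, limma adjusted p = 0.0557 without a filter), CDH5 averaged 0.0395 and 0.0787 FPKM, also without overlap, and PECAM1 had 1 fragment or none per library. Leukocyte markers summed to 0.355 to 0.627 FPKM and 0.830 to 1.22 FPKM, most of it CD14, which passed in the fit without a filter (limma adjusted p = 0.0441) and in no fit that left out a library (0.0586 to 0.133). Over all settings 8 ended the CD14 call and 5 kept it, among these voom (adjusted p = 0.00416). In the Schwann and glial list MBP was lower, without overlap, with 127 fragments over the shNC libraries and 40 over the shMYT1 libraries. Lower mean FPKM was also found for MLANA (31 and 15 fragments), DCT (39 and 24), TEK (9 and 4) and PTPRC (38 and 27). PMEL was higher (79 and 134), and all these counts are low. None of the markers with a row was at 0 in all libraries. The part of such markers in the SOX9 and SOX18 values was not tested.

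RefSeq promoter windows (GRCh38.p14, 250 bases before to 50 after a start) were at hand for 6 of the 10 genes, SOX2, SOX3, SOX4, SOX5, SOX6 and SOX12, as 10 windows. They were searched on both strands. The MYT1 core AAAGTTT was found in 1 of them, that of SOX4, and in 4.28% of all 35116 windows. The SOX core AACAAAG was found in 1 window of SOX6 and in 5.2% of all windows, and ACAATGG in windows of SOX5 and SOX6 and in 3.16% of all windows. A retinoic acid receptor repeat, AGGTCA followed by AGGTCA after a gap of 5 bases, was in no member window and in 2 of all windows. The SOX4 window starts inside the GENCODE 29 gene body, since the RefSeq start lies downstream of the GENCODE start. A match of letters is a description and not a binding site.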

How the data were processed

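RNA of 6 SK-N-BE(2) libraries, 3 shNC and 3 shMYT1 by their titles, was compared. The values are FPKM as deposited by the authors, and no unit other than FPKM was used. HISAT2 2.0.5, featureCounts 1.5.0-p3 and hg38 are named per the submitters' processing notes, with no statement on annotation, strand or filters. GENCODE 29 gave symbols, positions and exon lengths for 32301 of 32434 IDs. Multiplying FPKM by exon length recovered whole fragments, to a tolerance of 0.01, for 95.38% of the matched IDs. Depth came to 18.16 to 21.68 M fragments, and 3 fragments on 1 kb of exon equal 0.140 to 0.170 FPKM, for counting error only.

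The fit was limma 3.58.1 in R 4.3.3 on log2(FPKM + 1), two-sided, with a trend of variance on level, over the genes averaging 1 FPKM or more. Benjamini-Hochberg adjustment covered all of them. Members below that level were taken from the same model without the filter. The scale understates the change of low genes. Members and gene lists were chosen with earlier results of these data known.

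Named by rule were all members, MYT1 and the other SOX genes. Each list added up to 4 passing genes with the largest change, or its 2 highest where none passed. The 5 protein-coding genes with a profile nearest to the SOX gene that changed most were named too. Other genes, among them the trace noncoding RNAs, NBAT1 and genes given for a low level or for not passing, were named after their values were seen. Some genes and sequences that these rules select are not reported here.

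The model was tested on simulated counts of 14070 genes for 3 libraries against 3. It called 20 of 50 genes with a 1.25-fold change and 36 of 50 with a 1.5-fold change. It called 43 of 50 with a 2-fold change and 49 of 50 with a 4-fold change. Of its 154 calls, 6 were false. All these counts were drawn with the same spread between replicates (dispersion 0.000915), and each change was set in 50 genes only. In the libraries themselves 3420 of 14106 genes passed. Whether the rates above hold for the libraries was not tested. No replicates were merged, since within groups the chi-square per gene was 2.13 to 3.41, above counting noise.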

Additional observations from a re-analysis of the deposited data

How the results depend on the processing

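Each result was recomputed with another pseudocount, filter, scaling, variance model or threshold, with the replicate number as a block, with voom on recovered fragments, with a running median of 50 neighbouring genes removed, and without each library in turn. SOX9 passed upward under all 14 settings that tested it (log2 fold change 0.84 to 1.24) and SOX2 under all 15 (0.28 to 0.36). All 8 SOX genes kept their direction under every setting, both other scalings included. The number of SOX genes past the threshold was 2 of 5, beside 3420 of all 14106 genes tested. With voom it was 5, and 4454 genes passed in all. With the running median removed it was 4 (SOX4 and SOX12 in addition, at adjusted p = 0.0285 and 0.0429), and 2854 genes passed in all. It was 3 after rescaling to the same FPKM total (SOX11), without shNC replicate 3 (SOX12) and with the replicate block (SOX12, adjusted p = 0.0255). All genes passing then numbered 3586, 3048 and 3381 in turn. At a mean of at least 5 FPKM 2 SOX genes passed again, SOX2 and SOX12 (adjusted p = 0.0417), since SOX9 is below that level. There 2612 genes passed in all. Whether the SOX counts differ from these backgrounds was not tested.

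The count of all genes past the threshold, 3420, was 1494 at an adjusted p under 0.01 and 2038 to 3048 when 1 library was left out; omitting shNC replicate 1 gave 2195, shNC replicate 2 2038 and shMYT1 replicate 1 2196, each in a fit with fewer samples. With the replicate block it was 3381; same-numbered libraries correlated at only 0.013 to 0.043 in their deviations from the group means, so the numbers were not taken to pair them, although each library correlated best with its own number. After rescaling, 36.4% of calls were higher in shMYT1, against 49.2% as deposited.

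Of 738 recomputed values for 52 named genes, 663 kept direction and side of the threshold, 47 lost the call, 16 gained it and 12 changed sign, none of them from a called value. With 1 library left out, the log2 fold change ranged from -0.0381 to 0.0033 for CHD7, from -0.1542 to 0.0034 for NBAT1, from -0.0241 to 0.0352 for SOX13, from -0.098 to 0.2881 for SOX15 and from -0.0272 to 0.0019 for SOX30. With the running median removed it was 0.2397 for CHD7 (adjusted p = 0.00506), -0.0305 for SOX13 and -0.0664 for SOX21, and after rescaling -0.0012 for SOX13. SOX5, SOX6 and SOX8, whose own fit has no filter, have no value at a mean of 5 FPKM. The cause was not tested. Low counts limit SOX6, SOX8, SOX21 and SOX30.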

Other observations

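SOX18 begins 52753 bases from the start of MYT1 on chromosome 20 (SOX18 at chr20:64047582-64049641, minus strand), at the end of the long arm. While MYT1 fell, 7 of the 26 tested genes nearest to it rose and 0 fell, and their median log2 fold change was 0.04. Over all genes tested 24.2% passed, 11.9% upward, and whether the neighbourhood differs from that was not tested. Around SOX18, 8 of 31 tested neighbours rose and 1 fell, and 2 of them had a higher fold change than SOX18. With the running median of neighbours removed, SOX18 had a log2 fold change of 0.58 (limma adjusted p = 0.0123).

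Over the 6 libraries, the genes whose log2(FPKM + 1) profile lay nearest to that of SOX9, out of 11175 protein-coding genes, were CACNG8, APLNR, SLC6A2, ZIC5 and CXCL12, with a root mean square difference of 0.0617 to 0.0924 on the log2 scale. APLNR, the apelin receptor gene, had means of 6.26 and 12.5 FPKM in control and MYT1-hairpin cells. SLC6A2, the noradrenaline transporter gene, averaged 10.99 and 21.5 FPKM, and CXCL12, a chemokine gene, 3.66 and 8.49 FPKM. CACNG8 averaged 0.747 and 2.15 FPKM and ZIC5 2.39 and 5.13 FPKM. CACNG8 reached a mean of 1 FPKM only through the shMYT1 libraries, so its place among the candidates is not independent of the filter. The 6 libraries form 2 groups, so nearness here reflects mainly the difference between them.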
